A study of Mus musculus with 4 samples.

Results

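The sites described here are regions of the mouse genome that carried a CTCF peak in proliferating MC3T3-E1 cells but in neither later stage of osteogenic differentiation, and whose peak reached a score of 500. They were chosen by merging the 3 deposited peak lists wherever peaks shared at least 1 bp on chromosomes 1 to 19, and by keeping regions with peaks of the day 0 list only and a highest score of 500 or more. This gave 1442 regions of the 68920 union regions. Each of the 1442 consisted of a single peak. They were 4.21% of the 34241 day 0 regions with such a score. For day 0 regions of any score, the share found at day 0 alone was 32.8%. Both shares follow from the rule, as do the scores below, which are given as a description.

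MC3T3-E1 subclone 4 is a preosteoblast line from mouse calvaria (labelled strain C57BL/6) used here at passages 28 to 31. It lays down and mineralizes a collagen matrix in medium with ascorbic acid (280 µM) and beta-glycerophosphate (10 mM). CTCF was immunoprecipitated and sequenced at day 0 (proliferating preosteoblasts), day 9 (matrix-depositing osteoblasts) and day 28 (mineralizing osteoblasts), and each stage is represented by 1 peak list, although the labels state that repeat libraries were made. All cells came from this one subcloned line, so the lists stand for 1 line rather than for osteoblasts of several origins. The input DNA was not analysed here.

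CTCF is a zinc-finger protein that binds a long DNA motif and, together with cohesin, anchors chromatin loops and insulates neighbouring regulatory domains. Many of its sites are occupied in most cell types. Sites that differ between cell types are known to include ones whose motif can be methylated, which hinders binding. Whether and where its occupancy differs along osteoblast differentiation is the question that the 3 stages address.

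The lists differ in length: 65943 peaks at day 0, 41808 at day 9 and 44650 at day 28 on these chromosomes. The lowest deposited scores were 100.01, 100 and 100. The score is the authors' own value, taken to be a multiple of the peak caller's −log10 p-value, and is treated as saturated from 3100. It grows with sequencing depth, which is unknown here, so a score ranks peaks only within its own list. With 1 list per stage there was no replicate error and no test between stages, and intervals below are 95% Wilson intervals for counting error (for medians, order-statistic intervals). No gene or sequence was assigned to a region, because the coordinates (mm9, counted from 1) and the gene tables used here are of different builds.

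Most of the 1442 sites were of middling rank in their own list. Their scores ran from 500.15 to the saturated 3100, with a median of 652 (interval 641 to 664) and quartiles of 560 and 813. The median site scored above 53.5% of the day 0 peaks, and the threshold of 500 itself stood above 47.6% of them. Scores of 1000 or more were reached by 191 sites (13.2%), scores of 2000 or more by 17, and the saturated score by 2. The name "well-scored" thus holds relative to the other day 0-only regions, 19938 of which scored under 500 with a median of 168, and less so relative to the day 0 list as a whole. Just inside the threshold lay sites at chr6:134389163-134390522 (score 500.15), chr19:27768131-27768618 (500.3) and chr5:131345701-131346129 (500.3). Just outside it lay day 0-only regions at chr2:35960439-35961358 (499.93), chr12:16648751-16649267 (499.9) and chr15:103196710-103197656 (499.88).

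The share of day 0 regions found at day 0 alone fell with the day 0 score. It was 20.4% (18.9 to 21.97) of the 2648 regions scoring 500 to under 600, 6.59% (5.72 to 7.58) of the 2762 scoring 800 to under 1000, and 0.963% (0.679 to 1.36) of the 3220 scoring 1500 to under 2000. At the saturated score it was 0.0166% (0.00456 to 0.0606) of 12031 regions. Regions present at one later stage followed the same gradient. For scores of 500 to under 600 there were 540 day 0-only sites, 416 regions of day 0 and day 28 and 204 of day 0 and day 9. For scores of 2000 to under 3100 there were 15, 21 and 12.

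**Figure D1:**
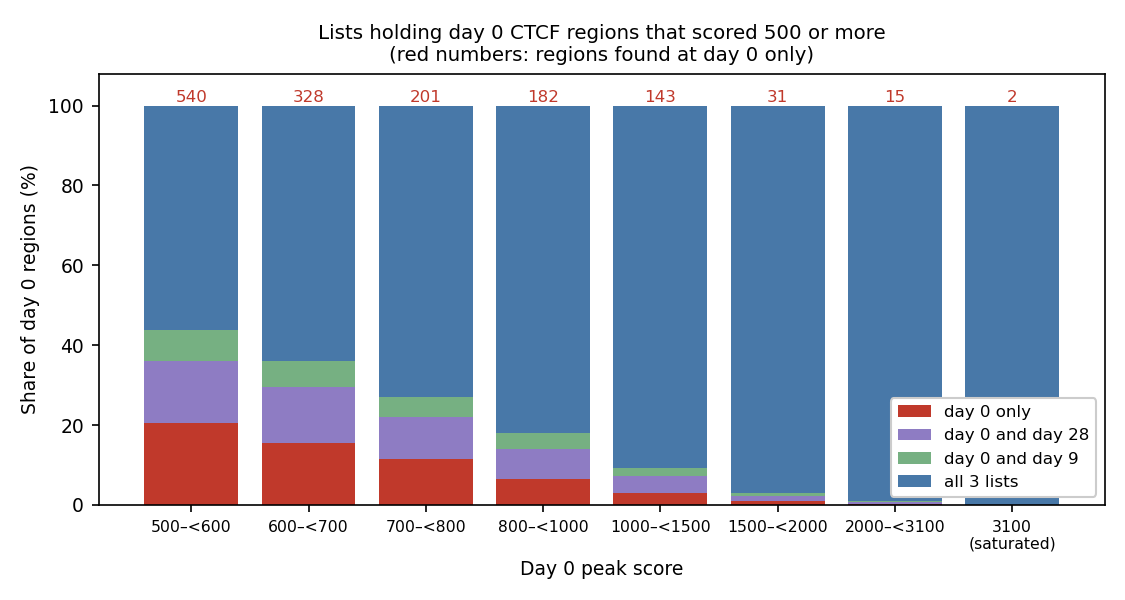
Share of day 0 regions (%, vertical axis) by the lists that held them, for ranges of the day 0 peak score (horizontal axis). The part found at day 0 only (red, with its number of regions above each bar) shrinks from 20.4% in the lowest range to 0.0166% at the saturated score.

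Many day 0 regions just beyond the rule were listed later with low scores. Of the day 0 regions scoring 500 to under 600, 36.1% had no day 9 peak and a further 34.0% had a day 9 peak scoring under 200. In the same range 28.1% had no day 28 peak and 30.8% had a day 28 peak scoring under 200. When later peaks under 200 were set aside, 4483 day 0 regions met the rule in place of 1442. Setting later peaks aside can only add regions to this count. The direction of the change was therefore fixed in advance, and only its size was open.

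The names of the deposited peaks carry a running number that rises along every list, with gaps. The day 9 list lacked 20784 numbers and the day 28 list 16001. Where the listed peaks on either side of a site have consecutive numbers, no number was skipped around the site. Where a number is missing, a number was assigned there that no listed peak carries. Why numbers are missing is not given in the sources used here, and a missing number cannot be placed within its interval. All but 1 of the 1442 sites had listed peaks on both sides in both later lists.

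Most sites lay where later peak numbers were missing. At least 1 day 9 number was missing between the flanking day 9 peaks for 1187 of 1441 sites (82.4%, 80.3 to 84.3), against 69.3% (68.7 to 70.0) of the day 0-only regions scoring under 500 and 12.7% (12.3 to 13.1) of the 26159 day 9 intervals that held no union region. For day 28 the numbers were 1151 of 1441 sites (79.9%, 77.7 to 81.9), against 63.5% (62.8 to 64.2) and 8.72% (8.40 to 9.04). Numbers were missing in both lists for 990 sites (68.7%, 66.3 to 71.0), in the day 9 list only for 197, in the day 28 list only for 161 and in neither for 93 (6.45%, 5.30 to 7.84). Among the day 0-only regions of any score that could be judged, 15.4% had no missing number in either list. For a single later list the share without a missing number was 29.8% at day 9 and 35.4% at day 28.

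The intervals differed in length, with medians of 134 kb at day 9 around the sites and 59.4 kb around the day 0-only regions under 500, and longer intervals held missing numbers more often. Within like lengths the order of the groups was the same. Between day 9 peaks less than 10 kb apart, a number was missing for 43 of 57 sites (75.4%, 62.9 to 84.8), against 46.5% (43.8 to 49.1) of the day 0-only regions under 500 and 7.05% (6.63 to 7.504) of the intervals with no region. Between day 28 peaks less than 10 kb apart, it was missing for 50 of 65 sites (76.9%, 65.4 to 85.5), against 46.7% (44.3 to 49.2) and 3.61% (3.32 to 3.93). For intervals of 100 kb or more at day 9 the shares were 83.8% of sites, 78.1% of the lower-scoring regions and 28.2% of intervals with no region.

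**Figure D2:**
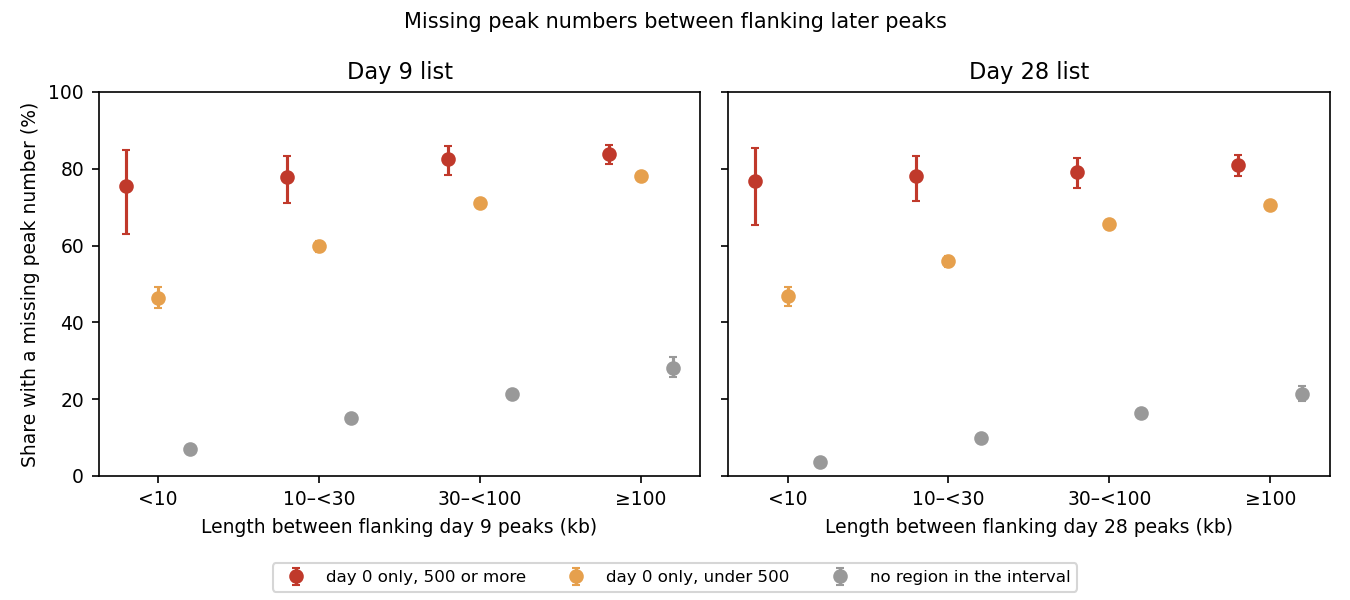
Share (%, vertical axis, with 95% Wilson intervals) of day 0-only sites scoring 500 or more, of day 0-only regions scoring under 500 and of intervals without any union region that had a missing peak number, by the distance between the flanking listed peaks (kb, horizontal axis), for the day 9 list and the day 28 list. In each panel the red points lie between 75.4% and 83.8% and stand above both other groups at every length.

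An interval can hold several unlisted regions, and a missing number may belong to any of them. Counted once each, 1007 of 1242 day 9 intervals that held a site (81.1%) and 984 of 1254 day 28 intervals (78.5%) had a missing number. The missing numbers were at least as many as the unlisted regions in the interval for 430 sites at day 9 (29.8%) and 417 sites at day 28 (28.9%), against 26.7% and 26.0% of the day 0-only regions under 500. A stricter comparison, added after the data had been seen, took day 0-only regions that were the only unlisted region between their flanking peaks. At day 9 a number was missing for 222 of 318 such sites (69.8%, 64.6 to 74.6), against 2876 of 6252 regions under 500 (46.0%, 44.8 to 47.2). At day 28 it was missing for 266 of 383 sites (69.5%, 64.7 to 73.9), against 3295 of 7406 regions (44.5%, 43.4 to 45.6). Among the 265 sites that stood alone in both lists, 40 (15.1%, 11.3 to 19.9) had no missing number in either, in place of 6.45% of all sites. The same share for lone regions under 500 is not given here. The 15.4% above is not limited to lone regions and is no like comparison. Between day 9 peaks less than 30 kb apart a number was missing for 85 of 119 lone sites (71.4%, 62.7 to 78.8), against 44.0% (42.3 to 45.7) of the lone regions under 500.

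Among these lone regions the share with a missing number was higher at higher day 0 scores, up to about the threshold. At day 9 it was 37.4% (35.5 to 39.2) for scores of 100 to under 150, 60.2% (57.0 to 63.4) for 300 to under 500 and 74.6% (63.4 to 83.3) for 700 to under 1000. At day 28 it was 35.4% (33.7 to 37.1), 61.8% (58.9 to 64.7) and 71.1% (61.0 to 79.5) for the same ranges. Above 500 the intervals of neighbouring ranges overlapped. For scores of 1000 or more the share was 70.3% (54.2 to 82.5) of 37 sites at day 9 and 71.8% (56.2 to 83.5) of 39 sites at day 28.

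**Figure D3:**
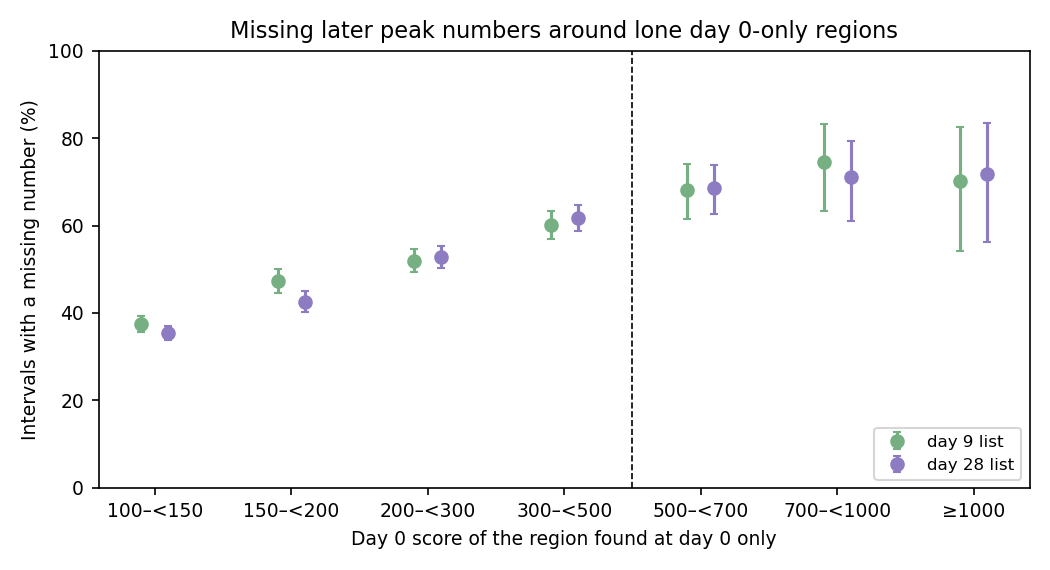
Share (%, vertical axis, with 95% Wilson intervals) of lone day 0-only regions with a missing number between the flanking day 9 or day 28 peaks, by the day 0 score (horizontal axis), with the threshold of 500 as a dashed line. The lowest range holds points of 37.4% (day 9) and 35.4% (day 28), and the highest range points of 70.3% and 71.8%, with overlapping intervals above the threshold.

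The 93 sites with no missing number in either list had a median score of 600 (quartiles 545 and 755) and a median width of 462 bp. The 990 sites with missing numbers in both lists had a median score of 655 and a median width of 503 bp. The highest-scoring of the 93, picked out after their values were seen, lay at chr9:29215517-29215902 (score 1204) and at chr5:89929151-89929686 (1204), chr5:91467482-91468089 (1148) and chr5:25397131-25397651 (1133). That on chromosome 9 was 386 bp wide and lay 854 bp from an all-stage region. The shares of sites with a missing number, 82.4% at day 9 and 79.9% at day 28, stood below those of day 0 regions of 500 or more that were absent from only 1 later list. A day 9 number was missing for 90.9% (89.3 to 92.3) of 1365 regions of day 0 and day 28, and a day 28 number for 90.4% (88.0 to 92.4) of 670 regions of day 0 and day 9.

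Of the 191 sites scoring 1000 or more, 5 (2.62%, 1.12 to 5.98) had no missing number in either list, against 6.45% of all sites. This difference is not adjusted for interval length. Lone sites of 1000 or more lay in day 9 intervals with a median of 112 kb, against 39.2 kb for scores of 500 to under 700. As given above, the share among lone sites did not rise clearly beyond the threshold.

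The 10 highest-scoring sites lay between 10.5 and 122 kb from the nearest other CTCF region. The saturated sites lay at chr8:17664173-17664779 (607 bp) and chr2:96548043-96548458 (416 bp). The nearest day 9 or day 28 peak was 89.5 kb from the chromosome 8 site and 122 kb from the chromosome 2 site. The next lay at chr12:46566934-46567458 (score 2725), chr3:123392911-123393382 (2694) and chr15:92357091-92357746 (2603). After these came chr11:17911055-17911636 (2581), chr2:22490001-22490760 (2412), chr4:104187262-104187936 (2323), chr6:40843391-40844037 (2295) and chr5:89873303-89873889 (2244). Their distances to the nearest later peak ranged from 10.6 kb for the chromosome 5 site to 161 kb for the chromosome 6 site. Each had a missing number in at least 1 later list, but so did most sites: only 93 of 1441 (6.45%) had none in either. For these 10 it was only the day 28 list for the sites on chromosomes 12 and 6. It was only the day 9 list for those on chromosomes 3 and 5, and both lists for the other 6. The chromosome 12 site lay in a gap of 3662 kb between day 9 peaks with consecutive numbers, 21.7 kb from the nearer of them.

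By median, the sites stood in sparser CTCF territory than the groups set beside them. The 188 sites of 1 kb or wider, described below, were an exception. The median distance to the nearest all-stage region (one with a peak in each list) was 27.3 kb (23.9 to 29.8), against 12.7 kb (12.3 to 13.0) for day 0-only regions under 500 and 10.3 kb (10.02 to 10.6) for all-stage regions scoring 500 to under 3100. The nearest CTCF region of any kind was at a median of 11.6 kb (10.1 to 12.9), against 5.97 kb (5.79 to 6.14) and 5.37 kb (5.21 to 5.55). The nearest other day 0 region, whatever its later listing, was at 11.9 kb (10.4 to 13.3), against 6.28 kb (6.12 to 6.45) and 5.78 kb (5.60 to 5.95). No later peak lay within 100 kb of 272 sites (18.9%), against 7.19% of the day 0-only regions under 500. The farthest from a later peak was a site at chr1:111731176-111731560 (score 515), 1407 kb away. Others lay 1391 kb away at chr4:90750641-90751094 (score 637) and 1210 kb away at chr12:63994287-63994621 (score 1289).

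Distance grew with score among the sites but not among all-stage regions. Sites scoring 500 to under 600 lay at a median of 17.1 kb (14.5 to 20.7) from the nearest all-stage region, those scoring 800 to under 1000 at 40.7 kb (31.6 to 52.2) and those scoring 1000 to under 1500 at 61.8 kb (45.4 to 85.8). All-stage regions in these ranges lay at medians of 9.91 kb (9.06 to 11.6), 10.04 kb (9.13 to 10.9) and 10.6 kb (10.002 to 11.1) from the next one. The few sites of higher score lay at medians of 96.4 kb (31 sites, 1500 to under 2000) and 78.6 kb (15 sites, 2000 to under 3100), with wide intervals of 51.8 to 230.1 kb and 25.2 to 298 kb.

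**Figure D4:**
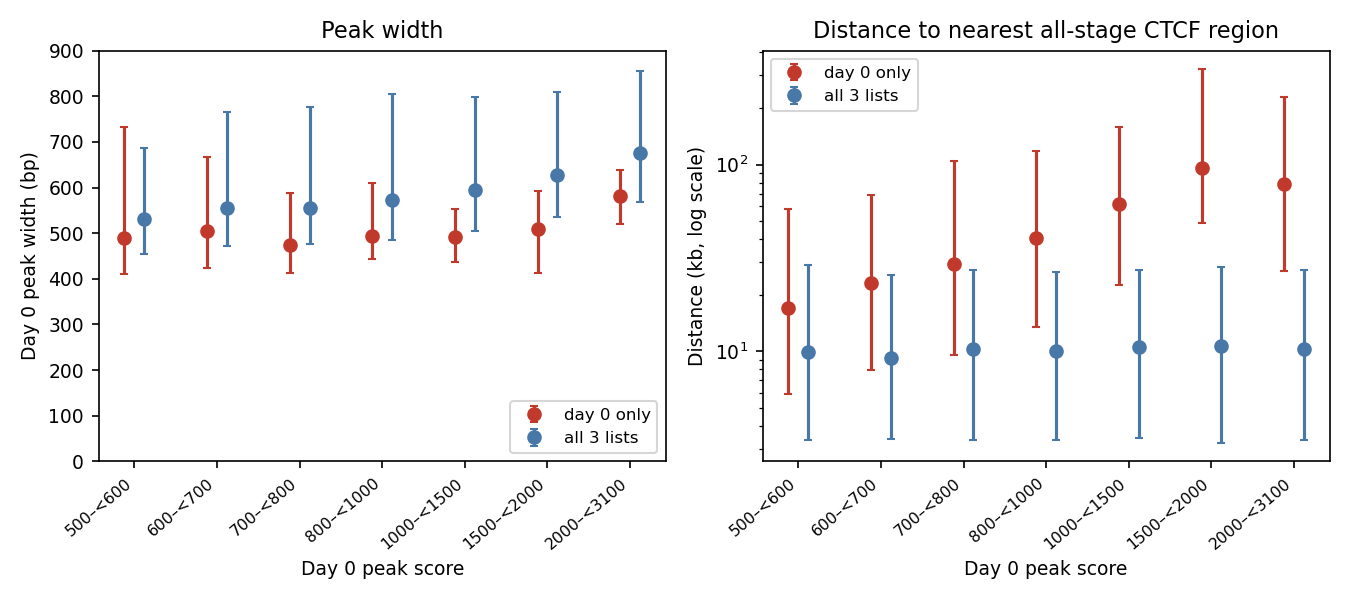
Median and quartiles of peak width (bp, left) and of the distance to the nearest all-stage region (kb, log axis, right) by day 0 score (horizontal axis), for sites found at day 0 only and for regions found in all 3 lists. Day 0-only sites are narrower by median in each range, and their median distance is 17.1 kb in the lowest range and 61.8 kb at 1000 to under 1500, while the median for all-stage regions stays between 9.20 and 10.7 kb.

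The same contrast appeared as a share. Of day 0 regions scoring 500 or more and lying 100 kb or more from an all-stage region, 17.3% (15.7 to 18.996) of 1964 were found at day 0 alone, against 1.94% (1.54 to 2.45) of 3556 lying within 1 kb of one. Between 10 and 100 kb the share was 4.61% (4.29 to 4.95). The share beyond 100 kb exceeded that under 100 kb on each of the 19 chromosomes. Day 0 regions under 500 showed a smaller spread, with 77.0% (75.3 to 78.6) found at day 0 alone beyond 100 kb and 63.0% (61.2 to 64.8) within 1 kb. All-stage regions are defined by the same later lists that the rule used. These shares, and the distances to all-stage regions, are therefore not independent of the rule.

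Close to the sites, the next CTCF region along the chromosome was more often another day 0-only region. Such regions made up 45.8% (44.0 to 47.7) of the immediate neighbours of the sites, against 35.2% (34.8 to 35.7) for day 0-only regions under 500 and 28.9% (28.5 to 29.4) for all-stage regions scoring 500 to under 3100. All-stage regions made up 40.5% (38.7 to 42.3), against 49.0% (48.6 to 49.5) and 54.8% (54.3 to 55.4).

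Later peaks stood beside a small part of the sites. A day 9 or day 28 peak lay within 1 kb of 95 sites (6.59%, 5.42 to 7.99), against 10.8% of all day 0-only regions. The closest were a site at chr7:73253712-73254700, 1 bp from a day 28 peak, a site at chr10:126944974-126945772, 15 bp from one, and a site at chr2:11451659-11452296, 46 bp from one. In all, 9 sites lay within 100 bp of a later peak.

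By median, the sites were narrower than all-stage regions of like score. A wider day 0 peak leaves more room for a later peak to overlap it, so width is not independent of the rule. The median width was 493.5 bp (486 to 503), with quartiles of 422 and 641 bp. In the range of 1000 to under 1500 the sites had a median width of 491 bp (quartiles 437.5 and 552), against 594 bp (504 and 798) for all-stage regions of that range. At 500 to under 600 the medians were 490.5 and 531.5 bp, but the third quartile was 733 bp for the sites and 687 bp for the all-stage regions. Widths of 1 kb or more made up 16.1% of these sites and 8.40% of these all-stage regions. At 600 to under 700 the shares were 16.2% and 10.6%. From 700 up, the share was higher among all-stage regions in each range. The share found at day 0 alone was highest at both ends of the width scale. Among day 0 regions scoring 500 to under 1000 it was 36.0% (27.3 to 45.8) for widths under 300 bp, 7.15% (5.96 to 8.56) for 700 to under 1000 bp, 13.5% (11.7 to 15.5) for 1 to under 2 kb and 24.4% (14.2 to 38.7) for 45 regions of 2 kb or more.

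Sites of 1 kb or wider differed from the others in several ways. There were 188 of them (13.0%), with a median score of 613.5, and they lay closer to all-stage regions (median 8.01 kb) than the 1215 sites of 300 bp to under 1 kb (32.4 kb) or the 39 narrower ones (45.4 kb). Another CTCF region lay within 1 kb of 51 of the wide sites (27.1%, 21.3 to 33.9), against 10.4% (8.78 to 12.2) of the 1215. The nearest CTCF region of any kind was at a median of 2.55 kb from the wide sites. Both medians of the wide sites were below those of all-stage regions scoring 500 to under 3100 (10.3 and 5.37 kb), which were of any width. The wide sites thus did not share the sparse surroundings of the sites as a whole. Numbers were missing in both later lists for 78.7% (72.3 to 84.0) of the wide sites, against 68.0% (65.3 to 70.5) of the middle group and 43.6% (29.3 to 59.02) of the narrow one. Among day 0-only regions under 500 of any width it was 48.9%. These shares are not limited to lone sites, so a missing number may belong to another unlisted region nearby. The widest lay close together at chr8:126065744-126068969 (3226 bp, score 829), chr8:126097823-126101030 (3208 bp, 720) and chr8:126112045-126114781 (2737 bp, 556). The second and the third of these shared an interval of 48.5 kb between day 9 peaks with 15 missing numbers, the highest number around any site in that list. The narrowest lay at chr13:62108767-62108963 (197 bp, score 504), chr8:48471258-48471467 (210 bp, 714) and chr6:6949143-6949364 (222 bp, 554).

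Chromosomes differed modestly in their share of these sites. Of day 0 regions scoring 500 or more, the share was 6.21% (5.31 to 7.25; 148 sites) on chromosome 5, 5.91% (4.72 to 7.38; 72 sites) on chromosome 14 and 5.77% (4.61 to 7.19; 73 sites) on chromosome 19. It was lowest on chromosome 17 (2.85%, 2.15 to 3.77; 47 sites), chromosome 11 (2.96%, 2.38 to 3.67; 80 sites) and chromosome 1 (2.98%, 2.33 to 3.803; 62 sites). The intervals of the 3 highest chromosomes did not reach those of the 3 lowest, but treat sites as independent, and some sites came in groups. On chromosome 14, 20 of the 72 sites lay between 4 and 7 Mb, among 29 day 0 regions scoring 500 or more. Its share thus rested in good part on that stretch. The share of day 0 regions under 500 that were listed again varied too. At day 9 it was 14.1% (12.2 to 16.3) on chromosome 19 and 19.6% on chromosome 5. It was 25.7% on chromosome 11 and 33.6% on both chromosomes 1 and 17. On chromosome 14 it was high as well (32.4%, 29.6 to 35.3). At day 28 the shares were 24.7% on chromosome 19, 26.0% on chromosome 5 and 37.8% on chromosome 14. On chromosomes 17, 11 and 1 they were 29.3%, 30.3% and 38.9%. Whether these differences bear on the number of sites per chromosome was not tested.

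Most sites stood singly. Of the 1442, 201 were next to another such site in the order of union regions. They formed 93 runs, 86 of which held 2 sites. The closest pairs lay at chr2:128430831-128431284 and chr2:128431292-128431669 (7 bp apart, scores 795 and 620), at chr2:147628805-147629231 and chr2:147629248-147629636 (16 bp apart, 983 and 580) and at chr9:107611775-107612417 and chr9:107612507-107612955 (89 bp apart, 781 and 516). In windows of 1 Mb, 622 held 1 site and 20 held 5 or more. The highest count was 8 of 85 day 0 regions scoring 500 or more, on chromosome 19 at 5 to 6 Mb. The 5 windows with 7 sites lay on chromosome 14 at 5 to 6 Mb (of 8 such regions), 6 to 7 Mb (of 11) and 42 to 43 Mb (of 10), and on chromosome 5 at 95 to 96 Mb (of 10) and at chr5:127000001-128000000 (of 14).

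The longest runs lay together on proximal chromosome 14, in a stretch singled out after its values were seen. Between 4 and 7 Mb all 29 union regions had day 0 scores of 500 or more, and 20 of them were day 0-only sites. The 2 runs held 9 sites in a row (chr14:4830580-5732347) and 5 sites in a row (chr14:6168944-6676382). The 29 day 0 scores ran from 649.7 to 2001 with a median of 1124, and the 20 sites were alike in width, from 406 to 530 bp. The regions were spaced by a median of 79.9 kb, with the smallest spacing at 42.8 kb and the largest at 238 kb. Some spacings recurred: 42.767 and 42.755 kb, 70.804 kb after regions 16 and 25 in order, and 237.359 and 237.524 kb. Whether the regions differ in sequence was not tested, so they may not be separate observations.

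The other 9 regions of that stretch were listed later, but with scores near the lowest deposited. The 6 day 9 scores ran from 104.5 to 147, and the 6 day 28 scores from 102 to 204. Elsewhere, all-stage regions with day 0 scores of 1000 to under 1500 had median scores of 391 at day 9 and 573 at day 28. Day 9 numbers were missing around 18 of the 20 sites, and day 28 numbers around 19. Many of these sites shared an interval and its numbers, so the counts are not of separate observations. The 9 sites in a row lay in the same day 9 interval, with 7 missing numbers. The 5 in a row shared another, with 4. The regions of the stretch that were listed later scored below those medians for all-stage regions in each case. The comparison is rough, since their day 0 scores ran from 959 to 2001 and not all of them were listed at both later stages. Without the stretch, the median distance of sites scoring 1000 to under 1500 to the nearest all-stage region was 55.6 kb in place of 61.8 kb.

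**Figure D5:**
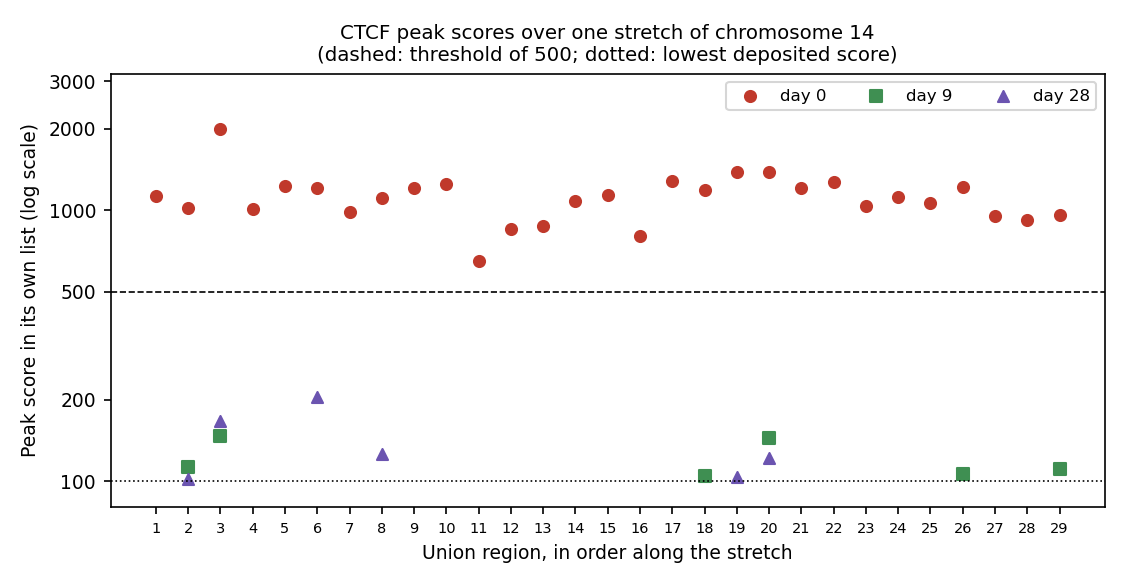
Peak scores in their own list (log axis) of the 29 union regions between 4 and 7 Mb of chromosome 14, numbered in order along the stretch, at day 0, day 9 and day 28. The day 0 scores run from 649.7 to 2001, whereas the later peaks scored between 102 and 204.

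Lower-scoring day 0 regions around the sites were listed again less often than those farther away. Among day 0 regions under 500 within 500 kb of a site (between centres), 20.98% (20.3 to 21.6; of 15094) were listed at day 9 and 26.6% (25.9 to 27.3) at day 28. Among the 15795 farther away, 25.5% (24.9 to 26.2) were listed at day 9 and 32.4% (31.7 to 33.1) at day 28. Within 100 kb of a site the shares were 18.4% and 22.6%. All chromosomes were pooled here, and the share listed again at day 9 ran from 14.1% on chromosome 19 to 33.6% on chromosome 1. Whether the difference holds within chromosomes was not tested. The intervals treat neighbouring regions as independent.

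Regions shared by all lists also ranked slightly lower near the sites, again with all chromosomes pooled. Scores of regions with 1 peak in each list, none saturated, were turned into percentiles within each list. The regions within 500 kb of a site stood at a median of −1.98 percentile points (−2.32 to −1.54) at day 9 minus day 0, against 1.71 (1.25 to 2.09) for those farther away. At day 28 the medians were −2.84 (−3.49 to −2.39) and 1.88 (1.397 to 2.37). With saturated regions kept, the day 28 median near the sites turned to 2.91 points (2.36 to 3.49), against 4.89 points farther away, and the day 9 medians were −0.287 (−0.581 to −0.0348) and 1.71 (1.49 to 1.95). The sign of the day 28 shift near the sites thus depended on saturation. The 4.89 points and both ends of its interval were 1 tied value, so the day 28 order of near and far regions is not read from that setting.

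Sites of the opposite kind were few. Day 9-only regions scoring 500 or more numbered 22 and day 28-only regions 36, against the 1442 day 0-only sites. Peaks of such a score numbered 21051 in the day 9 list, 24729 in the day 28 list and 34533 in the day 0 list. The day 0 list was the longest, and its peaks are not comparable in score with those of the other lists, so these counts do not measure loss against gain.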

How the data were processed

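Peak lists were deposited for CTCF at day 0, day 9 and day 28, 1 per stage. The tools named in the submitters' processing notes are MACS 1.4.1, CASAVA 1.6 and Bowtie 0.12.8, and the build is mm9. How repeats and input entered is not given in the sources used here. The authors' score per peak was used as deposited, only within its list, with values above 3100 set to 3100. Depth is unknown.

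Peaks sharing at least 1 bp were merged (Python 3.11.15, pandas 2.3.3). Shares carry 95% Wilson intervals (scipy 1.17.1). Distances run between nearest edges, and coordinates count from 1. Missing numbers were counted between the nearest listed peaks on either side of a region. The merging, distances and missing numbers were tested on simulated lists. The sites and groups were chosen with earlier results of these data known. Named regions were those highest and nearest the threshold in score, widest, narrowest, nearest to and farthest from later peaks, and closest to each other, with the extreme chromosomes and windows. Alternatives changed the threshold, overlap, list length, window and chromosomes. The planned motif search was not made, since no genome of this build was used.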

Additional observations from a re-analysis of the deposited data

How the results depend on the processing

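An overlap of 50% of the shorter peak, later peaks within 500 bp counted as shared, centres in place of edges, leaving out saturated sites and adding chromosomes X and Y left the values they were tried on within their intervals. A threshold of 1000 left 191 sites (0.765% of day 0 regions past it, median score 1230), at medians of 32.4 kb from the next region and 59.2 kb from a later peak. It left 5 sites with no missing number (2.62%), shares of 1.02%, 2.02%, 1.06%, 0.522%, 0.653% and 0.423% on chromosomes 5, 14, 19, 1, 11 and 17, and 14.8% (day 9) and 22.6% (day 28) of weak neighbours listed later. A threshold of 400 gave 2455 sites (6.53%, median score 532). Later scores of at least 200 gave 4483 sites (13.1%, median score 681, width 534 bp). Equal list size gave 1714 sites (5.005%), the 1442 among them. It left 34248 day 0 regions past 500, against 34241 before, so the trimming spared day 0 peaks of that score. The 1442 were therefore bound to remain, and the setting does not show how the longer day 0 list bears on their number. A later peak lay within 500 bp of 55 sites and within 2 kb of 166. Another site lay within 10 kb of 73. Sites alone between their flanking peaks, a setting chosen after seeing the data, had no missing number in 15.1% of cases. Leaving out the chromosome 14 stretch, also chosen later, kept both median distances within their intervals. Neighbours listed at day 9 and day 28 were 18.4% and 22.6% within 100 kb, 22.7% and 28.8% within 2 Mb, and 59.2% and 63.1% at any score. Percentile shifts were −3.59 and −5.56 within 100 kb, −0.575 and −1.14 within 2 Mb, and −0.287 and 2.91 with saturated regions kept. The cause of these moves was not tested, apart from fewer or more sites passing each threshold. No paired analysis was possible because each stage has 1 list. Depth is unknown, and whether it bears on the shares was not tested.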
